A study of Homo sapiens with 14 samples.

Results

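The response of prostate cancer cells to Fucotrim I was described from 3 libraries of cells kept with the inhibitor and 3 libraries of cells kept with the vehicle DMSO, 6 of the 14 RNA-seq libraries of the series. All 6 came from CWR22RV1, an established human prostate cancer cell line. The cells were kept for 72 h in DMSO or in 30 μM Fucotrim I, a rhamnose-1-phosphate derivative made to enter the de novo synthesis of GDP-fucose, and the study describes 3 biological repeats per condition. The table lists 27819 genes, of which 14188 had enough counts to be tested, and the genes described were taken by level of expression and from 31 lists of surface and secreted products, metabolic enzymes and transcription factors. Genes of the S phase, G2 and M phase and unfolded protein lists were left out of the choice by level, as were genes whose groups overlap or that average under 50 counts a library, so that groups that do not overlap are a condition of the choice and not a finding. The results come from 1 cell line, 1 dose and 1 time point.

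GDP-fucose is the sugar donor that fucosyltransferases use to add fucose to glycoproteins and glycolipids. Cells make most of it from GDP-mannose, in a route that starts with the enzyme GMDS, and GDP-mannose in turn also feeds the synthesis of N-glycans and of GPI anchors. Fucotrim I is aimed at GMDS, and the study states that it also lowers GDP-mannose. The study reports that it inhibits fucosylation in CWR22RV1, but lectin binding did not fall far enough there to determine its inhibitory concentrations. Reduced proliferation and induced apoptosis of this line with Fucotrim I are reported as well. The part of blocked fucosylation in the results below was not tested. Many secreted and surface proteins carry fucosylated glycans, and androgens, amino acid supply and sterol supply each act on transcription programmes that prostate cancer cells are known for.

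The libraries held between 12553094 and 17689717 counts on genes, and the lowest correlation of log values within a group was 0.994. Genes encoded by the mitochondrial genome took 5.98% to 7.03% of the counts in DMSO and 8.67%, 11.9% and 14.2% with Fucotrim I, and the 100 most abundant genes took 17.4% to 18.4% and 20.1% to 24.9%. The label as a prostate line was checked on markers. The summed level of 15 luminal prostate genes was 3709 to 3782 CPM (counts divided by library size after TMM scaling) in DMSO and 4574 to 4713 CPM with Fucotrim I. In the test given below, 12 of the 15 were called higher and 0 lower. Of all genes tested, 21.6% were called higher and 22.1% lower. The basal markers TP63, KRT5 and KRT14 had at most 10 counts in any library, whereas KRT15 and DST of the same list were detected and called higher, with a summed basal level of 60.1 to 63.4 CPM in DMSO and 68.7 to 74.6 CPM with Fucotrim I. The neuroendocrine list summed to 332 to 363 CPM, carried by SYP (called higher) and ENO2 (not called). The part of these lists in the results was not tested. CHGA of neuroendocrine cells and CD3E of T cells were at 0 in all 6, and 6 endothelial markers summed to at most 1.95 CPM. In bulk libraries of this kind, fewer cells in a given state and less RNA per cell cannot be told apart.

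At an adjusted p-value under 0.05 in edgeR's quasi-likelihood test, 6209 of the 14188 genes tested (43.8%) differed between Fucotrim I and DMSO, 3068 higher (21.6%) and 3141 lower (22.1%). These genes are referred to as called. Most changes were small, and 916 genes were called higher and 365 lower beyond a log2 fold change of 0.58. With a mitochondrial share that differed between the groups, the count without mitochondrially encoded genes in the scaling was 6193. Without Fucotrim I replicate 3, the library with the highest mitochondrial share, it was 4877.

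The direction of the calls varied with the level and the kind of gene. Levels are given in CPM, a share of the reads that grows with the length of a transcript, so genes are compared with themselves between groups and not with each other. Of the 480 genes at 300 CPM or more, 154 were higher and 167 lower. Of the 6374 genes at 30 to 300 CPM, 1461 were higher and 2001 lower, and of the 5054 at 3 to 30 CPM, 1120 were higher and 857 lower. Among 2280 genes under 3 CPM, 333 were higher and 116 lower. Of these, 324 rises and 113 falls were beyond 0.58. Protein-coding genes were called lower slightly more often (23.8%) than higher (21.7%). Of 796 long non-coding RNAs 170 were higher (21.4%) and 48 lower (6.03%), and of 348 pseudogenes 72 were higher (20.7%) and 21 lower (6.03%). Their shares of rises were thus near the 21.6% of all genes tested, and their shares of falls were below the 22.1% of all genes. The calls also went with gene length. Part of the tested genes were divided by exonic bases into 4 sets of 3224 or 3225 genes. Of the shortest set 29.1% were higher and 13.98% lower, and of the longest set 15.8% were higher and 31.4% lower. The part of gene length in the results below was not tested.

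Among the most abundant genes, and outside the unfolded protein list, which holds the falls that were larger, the 5 largest falls were in genes that handle redox balance, tRNAs and calcium. TXNRD1 (NCBI gene 7296, hg38 chromosome 12, bases 104215779 to 104350307), the cytosolic thioredoxin reductase, was at 1021, 1026 and 1022 CPM in the DMSO libraries and at 654, 634 and 597 CPM with Fucotrim I. The log2 fold change was -0.70 (SE 0.05, adjusted p = 4.79e-10). XPOT, which exports tRNAs from the nucleus, was at 393, 394 and 373 CPM in DMSO and 233, 261 and 239.5 CPM with Fucotrim I, a log2 fold change of -0.66 (SE 0.05, adjusted p = 4.05e-09). The aminoacyl-tRNA synthetase genes EPRS1 and IARS1 fell by 0.60 and 0.58, from means of 527 ± 8.95 and 436 ± 11.8 CPM (SD, n = 3) to 347 ± 10.7 and 291 ± 11.1 CPM. ATP2A2 (hg38 chromosome 12, bases 110280756 to 110351093), the pump that loads calcium into the endoplasmic reticulum, was at 911, 882 and 898 CPM in DMSO and 581, 601 and 590.1 CPM with Fucotrim I. Its log2 fold change was -0.60 (SE 0.04, adjusted p = 2.13e-09).

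The 5 largest rises at this level were all mitochondrial transcripts, ND1, ND6, ND5, ND3 and COX1, which encode subunits of respiratory complexes I and IV. ND1 was at 2706, 3139.9 and 2699.9 CPM in DMSO and 4715, 5982 and 7713 CPM with Fucotrim I, a log2 fold change of 1.11 (SE 0.21, adjusted p = 0.0156). The treated libraries spread widely, and of 20 mitochondrially encoded genes tested 15 were called higher and 0 lower. The calls of ND5 and ND6 were lost in 6 of 13 alternatives each, the replicate block among them (adjusted p up to 0.108 and 0.124 from edgeR's test when a DMSO library was left out), and that of COX1 was lost in 4. Chosen once their values were seen, the largest rises among nuclear genes were those of BTG1, NEAT1, FKBP5, MALAT1 and KRT8. BTG1 (NCBI gene 694, hg38 chromosome 12, bases 92140278 to 92145846), a gene that restrains proliferation, was at 225, 211 and 211 CPM in DMSO and 455, 456 and 434 CPM with Fucotrim I, a log2 fold change of 1.05 (SE 0.05, adjusted p = 1.47e-12). FKBP5, an immunophilin that is a known androgen target, rose by 0.98, and KRT8, a keratin of simple epithelia, rose by 0.75 (SE 0.05) from 504, 459 and 478 to 798, 789.9 and 834 CPM. The nuclear long non-coding RNAs NEAT1 and MALAT1 rose by 1.01 (SE 0.10) and 0.84 (SE 0.20). MALAT1 spread more than the others, from 184 to 243 CPM in DMSO and from 318 to 477 CPM with Fucotrim I, and 83.7% of its exonic bases are overlapped by a gene on the other strand.

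The largest rises at 30 to 300 CPM were in gene products of several kinds. Over all genes called higher, the median log2 fold change was 0.297 at this level and 0.295 at 300 CPM or more. S100P (NCBI gene 6286, hg38 chromosome 4, bases 6693878 to 6697170), a calcium-binding protein of the S100 family, was at 23.5, 24.1 and 25.5 CPM in DMSO and 85.8, 76.3 and 90.5 CPM with Fucotrim I. Its log2 fold change of 1.79 (SE 0.07, adjusted p = 3.94e-13) was the largest rise of this level. TTC6 (hg38 chromosome 14, bases 37595629 to 38041442), which encodes a protein with tetratricopeptide repeats, was at 28.7, 28.5 and 34.3 CPM and 70.6, 86.7 and 82.5 CPM, a log2 fold change of 1.39 (SE 0.08, adjusted p = 3.00e-10). TMPRSS2, a serine protease of the cell surface and an androgen target, was at 29.1, 30.1 and 28.9 CPM and 79.9, 76.3 and 73.6 CPM and rose by 1.38 (SE 0.06). FAR2P1, a pseudogene, was also called higher (1.38), but all of its exonic bases are shared with another annotated gene on the same strand, so its reads cannot be assigned to it alone.

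Outside the unfolded protein list, which holds SLC7A11, the falls at this level included the albumin gene and 2 secreted inhibitors of growth signals. DHRS2 (hg38 chromosome 14, bases 23630115 to 23645639), a dehydrogenase of the short-chain family, fell furthest of all at this level (-2.39, SE 0.07). ALDH1A1 (NCBI gene 216, hg38 chromosome 9, bases 72900671 to 73080442), which oxidises retinaldehyde to retinoic acid, was at 99.8, 96.4 and 94.1 CPM in DMSO and 24.3, 27.9 and 29.6 CPM with Fucotrim I, a log2 fold change of -1.83 (SE 0.07, adjusted p = 1.81e-13). DKK1, a secreted antagonist of Wnt signalling, was at 58.4, 50.7 and 58.2 CPM and 16.996, 22.6 and 21.5 CPM, a change of -1.45 (SE 0.09, adjusted p = 2.77e-10). ALB, the gene of serum albumin, was at 179, 161 and 157 CPM and 50.2, 67.2 and 74.4 CPM, with a change of -1.38 (SE 0.14, adjusted p = 2.77e-04) and a wider spread than its neighbours. IGFBP3 (hg38 chromosome 7, bases 45912245 to 45921874), which binds insulin-like growth factors outside the cell, was at 214, 195 and 220.4 CPM and 87.2, 79.3 and 85.7 CPM, a change of -1.32 (SE 0.06, adjusted p = 1.30e-12).

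The level of 3 to 30 CPM was set by the mean of all 6 libraries. A gene under 3 CPM in DMSO can thus enter it through the treated libraries. SLC26A3, INMT and TBATA, among the largest rises here, did so, and their low DMSO values are not a finding. SLC26A3 (hg38 chromosome 7, bases 107765467 to 107803225), a chloride and bicarbonate exchanger of gut epithelium, went from 1.16, 0.839 and 1.13 CPM to 7.59, 7.29 and 7.27 CPM, a log2 fold change of 2.81 (SE 0.19, adjusted p = 6.48e-10). INMT (hg38 chromosome 7, bases 30697985 to 30757602), a methyltransferase of indole amines, was at 1.05, 1.29 and 1.07 CPM in DMSO and 6.44, 6.34 and 6.34 CPM with Fucotrim I, a change of 2.48 (SE 0.19, adjusted p = 3.91e-09), with 11.1% of its exonic bases shared with an overlapping gene. SLC26A3 and INMT were nearly level among the treated libraries, whereas TBATA (2.57, SE 0.26) spread from 4.92 to 8.03 CPM. SPOCD1 rose by 1.93 (SE 0.19). The largest estimate, 3.86 for LOC102724594, belongs to a near-identical copy of U2AF1, whose reads the counting could have split, and its call was lost whenever a DMSO library was left out (adjusted p up to 0.0905 in edgeR's test).

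The 5 falls taken at 3 to 30 CPM were in genes of lipid synthesis, cell contacts, guidance and the cell cortex. CHAC1, JAKMIP2 and BRINP1 fell by 2.27, 1.71 and 1.35 at this level and were not among them, CHAC1 as a member of the unfolded protein list and the others for their counts. SPTSSB, a small subunit of serine palmitoyltransferase, which starts sphingolipid synthesis, was at 7.26, 7.72 and 7.56 CPM in DMSO and 2.53, 2.73 and 2.87 CPM with Fucotrim I, a log2 fold change of -1.47 (SE 0.15, adjusted p = 2.25e-07). CDH2 encodes N-cadherin and was at 5.32, 5.203 and 6.43 CPM and 1.66, 2.66 and 1.77 CPM, a change of -1.45 (SE 0.20, adjusted p = 7.11e-06). With Fucotrim I, SPTSSB and CDH2 were under 3 CPM. They entered this level through the DMSO libraries, so their low treated values are not a finding. RND3, a small GTP-binding protein that acts against actomyosin contraction, fell by 1.45 from 19.7, 19.8 and 17.3 to 6.22, 7.29 and 7.35 CPM. The secreted guidance molecule SEMA3E and the desmosomal plaque protein PKP1 fell by 1.30 and 1.28.

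**Figure D1:**
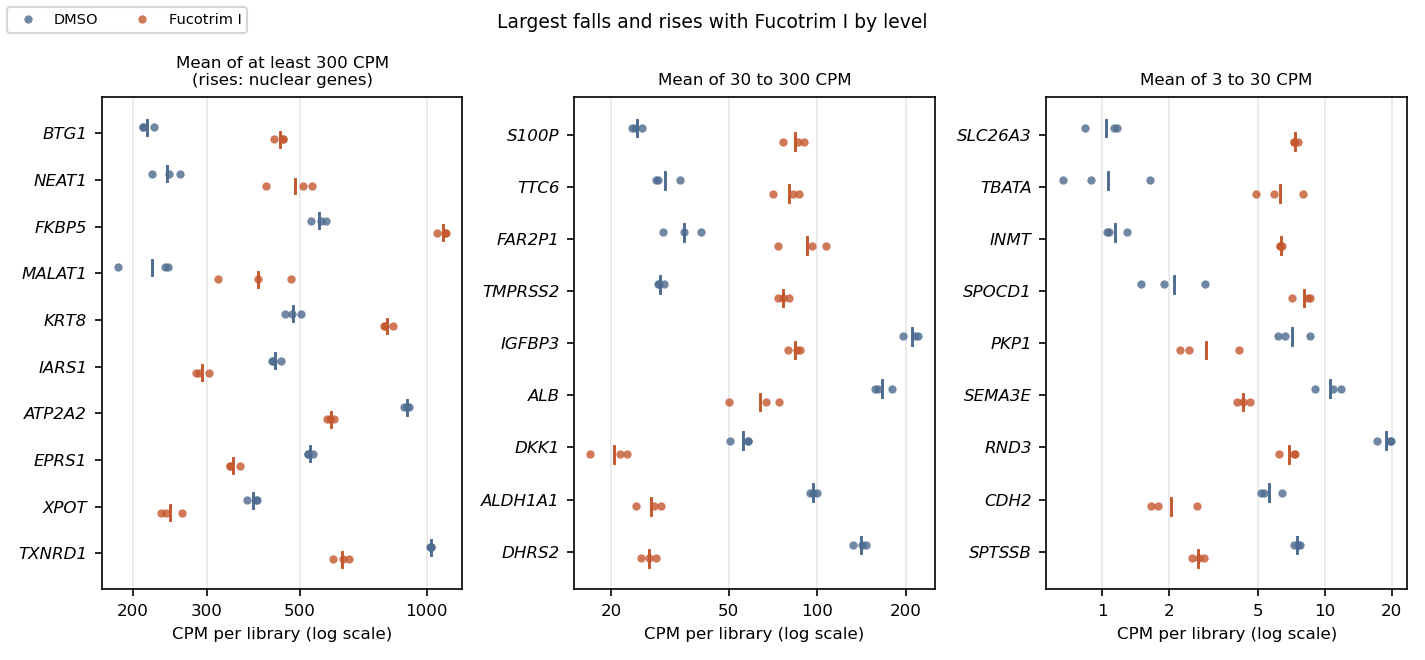
CPM of each library (horizontal, log scale) for the genes with the largest falls and rises at 3 levels of expression, with DMSO in blue and Fucotrim I in orange; each point is 1 library and each vertical tick the mean of 3. The high panel shows nuclear rises only, 1 rise is left out of the middle panel and LOC102724594 of the right panel, and groups that do not overlap were a condition for every gene named by rule.

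The shares of called members in the 31 lists are read against the 21.6% of all genes that were higher and the 22.1% that were lower. Cholesterol synthesis and uptake had the largest share of falls, with 16 of 25 tested members lower and 2 higher. In amino acid and one-carbon metabolism 19 of 40 were lower and 7 higher, and in the citric acid cycle 11 of 29 were lower and 2 higher. Fatty acid oxidation and ketone bodies had 18 of 39 members higher and 5 lower, and secreted and surface proteases and their inhibitors 19 of 46 higher and 7 lower. Of 6 S100 genes 4 were higher and 0 lower, with rises of 0.77 for S100A6 and 0.48 for S100A13 besides S100P. Receptor tyrosine kinases, glycolysis, HOX factors and serpins (1 of 8 in each direction) had shares close to those of all genes or below them. The excluded lists had 30 of 42 S phase genes, 44 of 54 G2 and M phase genes and 38 of 41 unfolded protein genes lower.

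**Figure D2:**
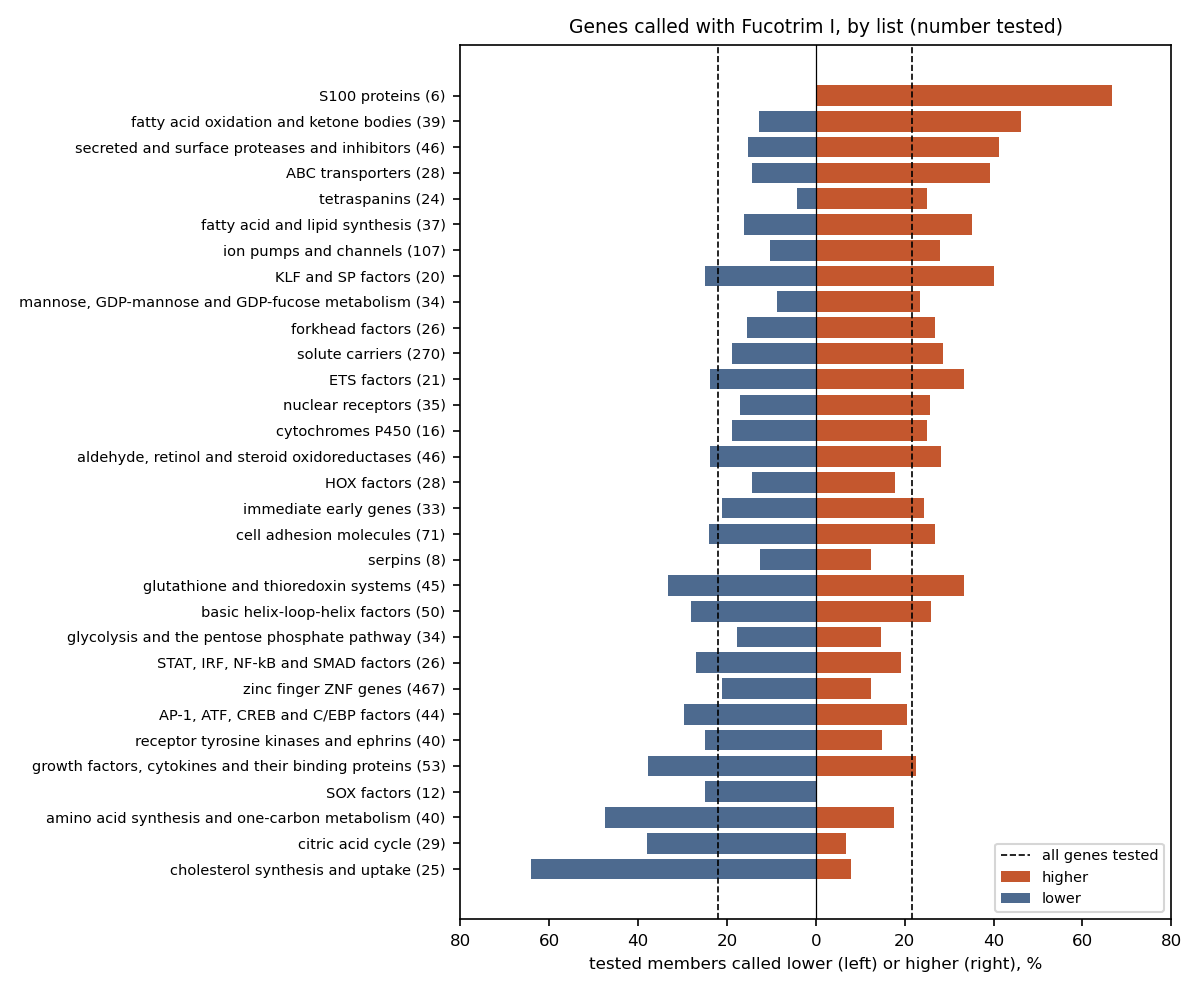
Share of the tested members of each of 31 gene lists called higher (orange, right) or lower (blue, left) with Fucotrim I, in percent, with the number tested in brackets. The dashed lines mark all genes tested, 21.6% higher and 22.1% lower, and the lists run from S100 proteins at the top to cholesterol synthesis and uptake at the bottom.

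Among secreted growth factors, cytokines and their binding proteins, 20 of 53 tested were lower and 12 higher, with a median log2 fold change of -0.10 beside 0.00 for all genes. Without Fucotrim I replicate 2 the median was -0.00175, and without DMSO replicate 2 it was -0.17. Besides DKK1 and IGFBP3, the connective tissue growth factor gene CCN2 was lower. It was at 19.6, 16.6 and 23.8 CPM in DMSO and 9.402, 12.3 and 7.69 CPM with Fucotrim I, a change of -1.01 (SE 0.16, adjusted p = 2.49e-04). The rises included ANGPTL4 (hg38 chromosome 19, bases 8363289 to 8374370), a secreted inhibitor of lipoprotein lipase, at 22.4, 19.2 and 22.9 CPM and 47.7, 40.4 and 43.001 CPM, a change of 1.02 (SE 0.08, adjusted p = 7.91e-09). LIF, a cytokine of the interleukin-6 family, was low throughout, at 1.88, 3.02 and 1.95 CPM and 4.34, 6.06 and 4.73 CPM, and rose by 1.14 (SE 0.21). The semaphorins SEMA3E and SEMA3F moved in opposite directions, by -1.30 and 0.46.

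Of the secreted and surface proteases and their inhibitors, the 3 largest rises were serine proteases of the prostate. KLK3, which encodes prostate-specific antigen (NCBI gene 354, hg38 chromosome 19, bases 50854915 to 50860764), was at 32.5, 32.1 and 27.7 CPM in DMSO and 59.4, 77.3 and 68.5 CPM with Fucotrim I, a change of 1.15 (SE 0.09, adjusted p = 1.26e-08). Its neighbour KLK2 was at 58.7, 60.4 and 59.5 CPM and 100.3, 127 and 126 CPM, a change of 0.99 (SE 0.08, adjusted p = 1.17e-08). TMPRSS2 had the largest change of the list, and all 3 are also among the luminal markers described above. The falls were smaller, with SERPINI1, a serpin best known from neurons, at -0.78, the membrane protease MMP16 at -0.48 and the sheddase ADAM9 at -0.45.

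The receptors and adhesion molecules of the cell surface changed in both directions. IGF1R (NCBI gene 3480, hg38 chromosome 15, bases 98648539 to 98964530), the receptor of insulin-like growth factors, was at 11.5, 11.6 and 11.03 CPM in DMSO and 27.5, 29.02 and 29.4 CPM with Fucotrim I, a change of 1.33 (SE 0.09, adjusted p = 3.00e-10). It was the only receptor tyrosine kinase gene called higher beyond 0.58. MET, the receptor of hepatocyte growth factor, was at 33.6, 31.6 and 31.9 CPM and 20.3, 17.8 and 17.99 CPM and fell by 0.79. EPHA3 and EPHA7, receptors of ephrins, fell by 0.77 and 0.76, while the ephrin ligand genes EFNA1 and EFNA3 rose by 0.43 and 0.46, the latter with 43.9% of its exonic bases shared with another gene on the same strand. In all, 10 of 40 genes of this list were lower and 6 higher.

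Cell adhesion genes were split evenly, with 19 of 71 higher and 17 lower. ITGA1, the alpha chain of a collagen-binding integrin, was at 12.1, 12.6 and 11.1 CPM in DMSO and 4.63, 4.84 and 5.74 CPM with Fucotrim I, a change of -1.24 (SE 0.13, adjusted p = 1.85e-07). Together with CDH2 and the tight junction gene CLDN1 (-1.08, SE 0.18) it had the largest falls. TMEFF2 (hg38 chromosome 2, bases 191949043 to 192194933), a transmembrane proteoglycan found in prostate, rose from 41.5, 41.8 and 41.3 CPM to 85.99, 93.7 and 88.8 CPM, a change of 1.11 (SE 0.06, adjusted p = 1.64e-11). The adhesion genes NECTIN4 and CEACAM6 rose by 0.80 (SE 0.15) and 0.69 (SE 0.15). Tetraspanins, proteins that organise membrane microdomains, had 6 of 24 members higher and 1 lower. TSPAN1 was at 46.1, 46.3 and 48.8 CPM and 109, 106 and 118 CPM, a change of 1.24 (SE 0.06, adjusted p = 3.43e-12), and the tetraspanin TSPAN4 rose by 0.53 (SE 0.07).

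More transporters and channels were called higher than lower. Of 270 tested genes with a solute carrier symbol, a few of them antisense RNAs or partner proteins, 77 were higher and 51 lower. SLC7A5, an importer of large neutral amino acids, was at 278, 256 and 281 CPM in DMSO and 189, 154 and 166 CPM with Fucotrim I, a change of -0.68 (SE 0.06, adjusted p = 1.12e-07), and its partner chain SLC3A2 fell by 0.42. This pair was named after its values were seen. Of 107 genes of ion pumps and channels 30 were higher and 11 lower, and of 28 ABC transporters 11 were higher and 4 lower. AQP1, a water channel, was at 9.14, 10.2 and 9.704 CPM in DMSO and 24.95, 25.1 and 28.3 CPM with Fucotrim I, a change of 1.43 (SE 0.09, adjusted p = 4.49e-10), with 27.9% of its exonic bases shared with an overlapping gene. ABCC11, an exporter of organic anions, was at 5.32, 6.55 and 5.48 CPM and 16.4, 17.8 and 20.1 CPM, a change of 1.64 (SE 0.12, adjusted p = 1.62e-09). The calcium-gated potassium channel gene KCNMA1 rose by 0.87 (SE 0.07), and ABCC2, an exporter of conjugates, by 0.78 (SE 0.08). CLIC4, an intracellular chloride channel protein, was the largest fall among the channels, at 125, 123 and 124 CPM and 57.1, 63.7 and 50.4 CPM, a change of -1.12 (SE 0.07, adjusted p = 1.08e-10). CACNA2D1, an auxiliary subunit of calcium channels, fell by 0.88 from a mean of 85.6 ± 3.17 to 46.3 ± 4.13 CPM (SD, n = 3).

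**Figure D3:**
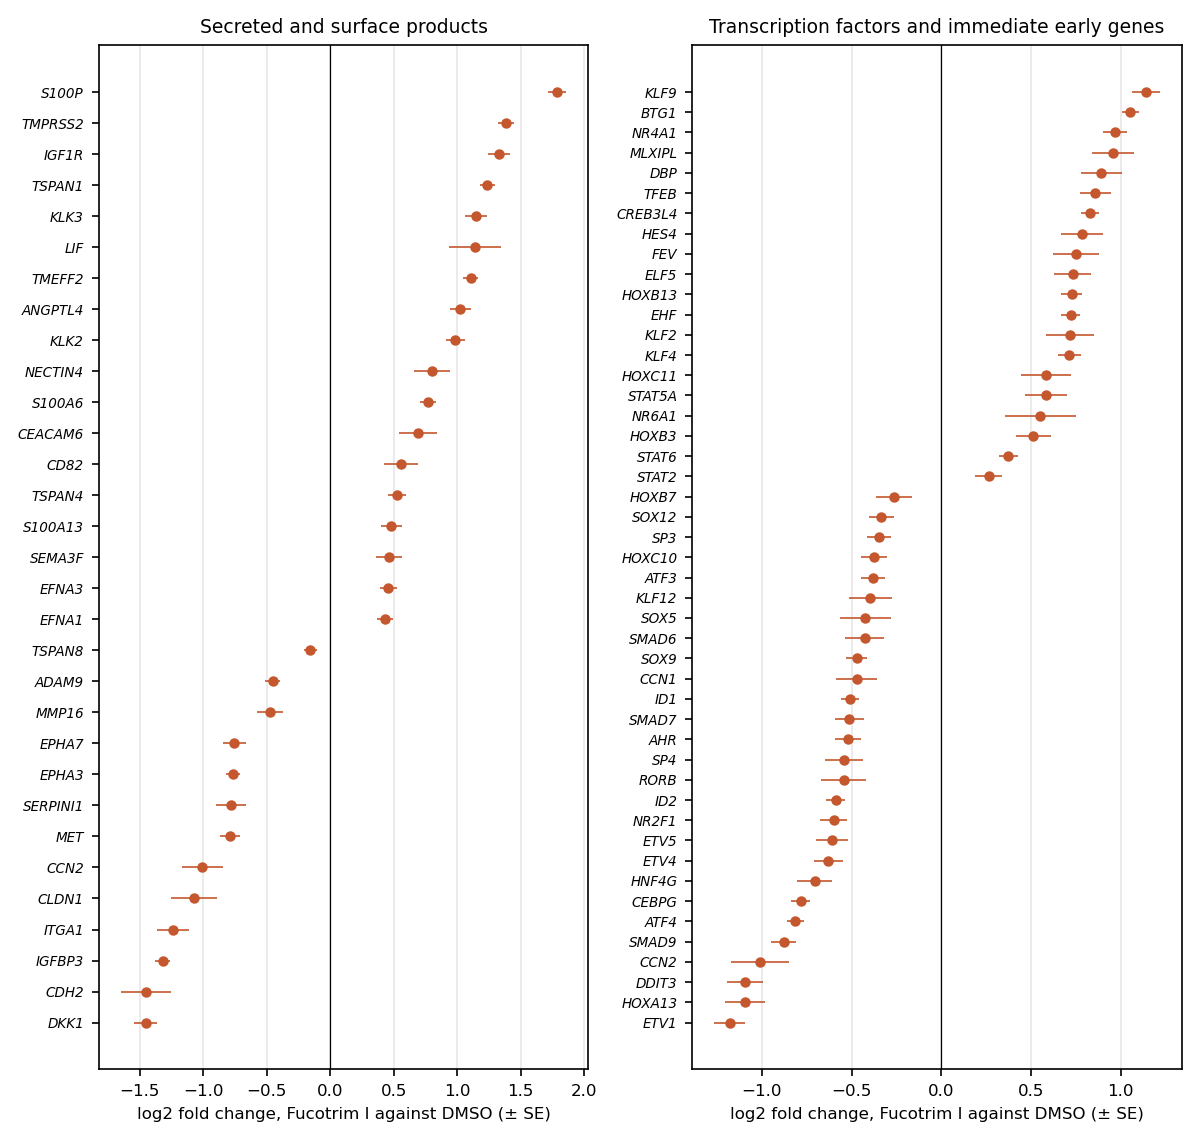
Log2 fold change with its standard error (horizontal) of genes named by rule for the surface and secreted lists (left, 31 genes) and the transcription factor and immediate early lists (right, 47 genes); every gene shown was called. S100P and KLF9 stand at the top of their panels, and DKK1 and ETV1 at the bottom.

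Of the genes for the synthesis of amino acids and the folate-linked transfer of one-carbon units, 19 of 40 were lower and 7 higher, with a median of -0.15. ASNS (NCBI gene 440, hg38 chromosome 7, bases 97851677 to 97872542), asparagine synthetase, was at 303, 322 and 313 CPM in DMSO and 144, 162 and 153 CPM with Fucotrim I, a log2 fold change of -1.03 (SE 0.05, adjusted p = 6.12e-12). In the annotation, 49.3% of its exonic bases are shared with another gene on the same strand. ALDH1L2 (hg38 chromosome 12, bases 105019784 to 105107643), a mitochondrial enzyme of folate metabolism, was at 133, 146 and 134 CPM and 63.2, 69.8 and 58.9 CPM, a change of -1.10 (SE 0.06, adjusted p = 6.12e-11). The serine synthesis gene PSAT1 was at 261, 259 and 252 CPM and 142, 152 and 136 CPM, a change of -0.85 (SE 0.05, adjusted p = 1.30e-10). The other enzymes of that route were lower too, with log2 fold changes of -0.56 for PHGDH and -0.46 for PSPH, and so was MTHFD2 of the mitochondrial folate pathway (-0.60). The largest fall of the list was that of BCAT1, a transaminase of branched-chain amino acids, at 4.82, 3.97 and 5.23 CPM and 1.37, 0.954 and 0.929 CPM, a change of -2.09 (SE 0.23, adjusted p = 4.65e-07). BCAT1, PHGDH, PSPH and MTHFD2 were named after their values were seen. The rises were in genes of amino acid breakdown and of methionine use, GPT by 0.79, AMT by 1.01 and MAT1A by 0.79, and 62.6% of the exonic bases of AMT are shared with another gene on the same strand.

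The transcription factor ATF4, a known activator of several of these genes, binds composite elements with the letters TGATGNAA, where N is any base. This motif was searched on both strands in the 250 bases before the start of each gene, in the RefSeq promoters of GRCh38.p14. It was present in 151 of the 11239 promoters found for tested genes (1.34%) and in 4 of 29 found for the amino acid list. All 4 belong to genes called lower, of which 14 had a promoter, and none was found for the other 15. A promoter was matched for fewer than 80% of the genes, both in the list (29 of 40) and in all (11239 of 14188), so the comparison of these shares is void and the matches stand as a description. The 4 windows are shown because the genes fell with Fucotrim I, each as 60 bases 5′ to 3′ on the strand of its gene with the motif in capitals. The RefSeq starts can differ from the GENCODE bounds given with the genes, and that of ASNS lies within them. In GOT1 the motif is read on the opposite strand.
MTHFD1L, change of -0.28, chr6:150866331-150866390, plus strand: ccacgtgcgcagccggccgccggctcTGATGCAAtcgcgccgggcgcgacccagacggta
ASNS, change of -1.03, chr7:97872443-97872502, minus strand: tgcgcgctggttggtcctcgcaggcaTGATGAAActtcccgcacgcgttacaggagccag
GOT1, change of -0.16, chr10:99430789-99430848, minus strand: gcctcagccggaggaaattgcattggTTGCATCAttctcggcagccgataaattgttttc
BCAT1, change of -2.09, chr12:24949116-24949175, minus strand: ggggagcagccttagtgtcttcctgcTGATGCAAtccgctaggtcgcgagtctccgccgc
The genes differ widely in size of change, from the small falls of GOT1 and MTHFD1L to the large ones of ASNS and BCAT1. GOT1 makes aspartate in the cytosol and MTHFD1L belongs to the mitochondrial folate route.

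The glutathione and thioredoxin systems were divided, with 15 of 45 genes higher and 15 lower. SLC7A11 (NCBI gene 23657, hg38 chromosome 4, bases 138164097 to 138242349), the cystine importer, was at 119, 123 and 116 CPM in DMSO and 24.4, 34.5 and 27.9 CPM with Fucotrim I, a change of -2.04 (SE 0.09, adjusted p = 5.65e-12). CHAC1, which breaks down glutathione, was at 14.9, 13.1 and 14.8 CPM and 2.53, 3.68 and 2.53 CPM, a change of -2.27 (SE 0.15, adjusted p = 3.00e-10). These were the largest falls of the list. OPLAH, the oxoprolinase of the glutathione cycle, went the other way, from 59.1, 55.8 and 58.98 CPM to 133, 129 and 137 CPM, a change of 1.20 (SE 0.06, adjusted p = 1.64e-12). The glutathione transferase gene GSTM3 rose by 0.71 (SE 0.08). GGT1, which starts glutathione breakdown outside the cell, rose by 0.74 (SE 0.07), with 46.7% of its 100-base windows also present in transcripts of other genes.

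Most genes of cholesterol synthesis and uptake were lower, with a median of -0.40. STARD4 (hg38 chromosome 5, bases 111496033 to 111512590), a sterol carrier, was at 37.8, 44.3 and 40.3 CPM in DMSO and 19.5, 22.4 and 20.7 CPM with Fucotrim I, a change of -0.96 (SE 0.08, adjusted p = 1.33e-08). INSIG1, the sterol-regulated anchor of the SREBP system, was at 58.2, 59.1 and 58.04 CPM and 34.1, 34.3 and 30.2 CPM, a change of -0.83 (SE 0.07, adjusted p = 7.27e-09). HMGCS1, the cytosolic synthase that opens the mevalonate pathway, was at 163, 164 and 158 CPM and 96.6, 104 and 79.2 CPM, a change of -0.79 (SE 0.07, adjusted p = 1.37e-07), with 37.7% of its exonic bases overlapped by a gene on the other strand. Fucotrim I replicate 3 was the lowest for INSIG1 and HMGCS1. The squalene epoxidase gene SQLE, named after its values were seen, fell by 0.74. SREBF2, the gene of the factor that activates the pathway, had a change of 0.05 and was not called. The genes called higher were PMVK (0.29, SE 0.06), a kinase of the mevalonate pathway, and TM7SF2 (0.17, SE 0.06), a sterol reductase whose call was lost in 5 of 14 alternatives.

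Fatty acid genes were called in both directions. FASN (NCBI gene 2194, hg38 chromosome 17, bases 82078338 to 82098294), fatty acid synthase, was at 1289.9, 1122 and 1267 CPM in DMSO and 2142, 1838 and 1939 CPM with Fucotrim I, a change of 0.69 (SE 0.06, adjusted p = 4.52e-08). SCD, which desaturates its products, was at 191, 176 and 179 CPM and 111, 105 and 93.8 CPM, a change of -0.82 (SE 0.06, adjusted p = 2.13e-09). The synthase and the desaturase thus had opposite signs, and in the synthesis list 13 of 37 genes were higher and 6 lower. ME1, which supplies NADPH for synthesis, fell by 0.49, and DGAT1, which completes triglycerides, rose by 0.54. In the oxidation list, CROT, the peroxisomal carnitine octanoyltransferase, was at 115, 121 and 115 CPM and 187, 212 and 199.9 CPM, a change of 0.77 (SE 0.05, adjusted p = 1.25e-09). BDH2 rose by 0.56, and OXCT1, which uses ketone bodies, fell by 0.48.

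**Figure D4:**
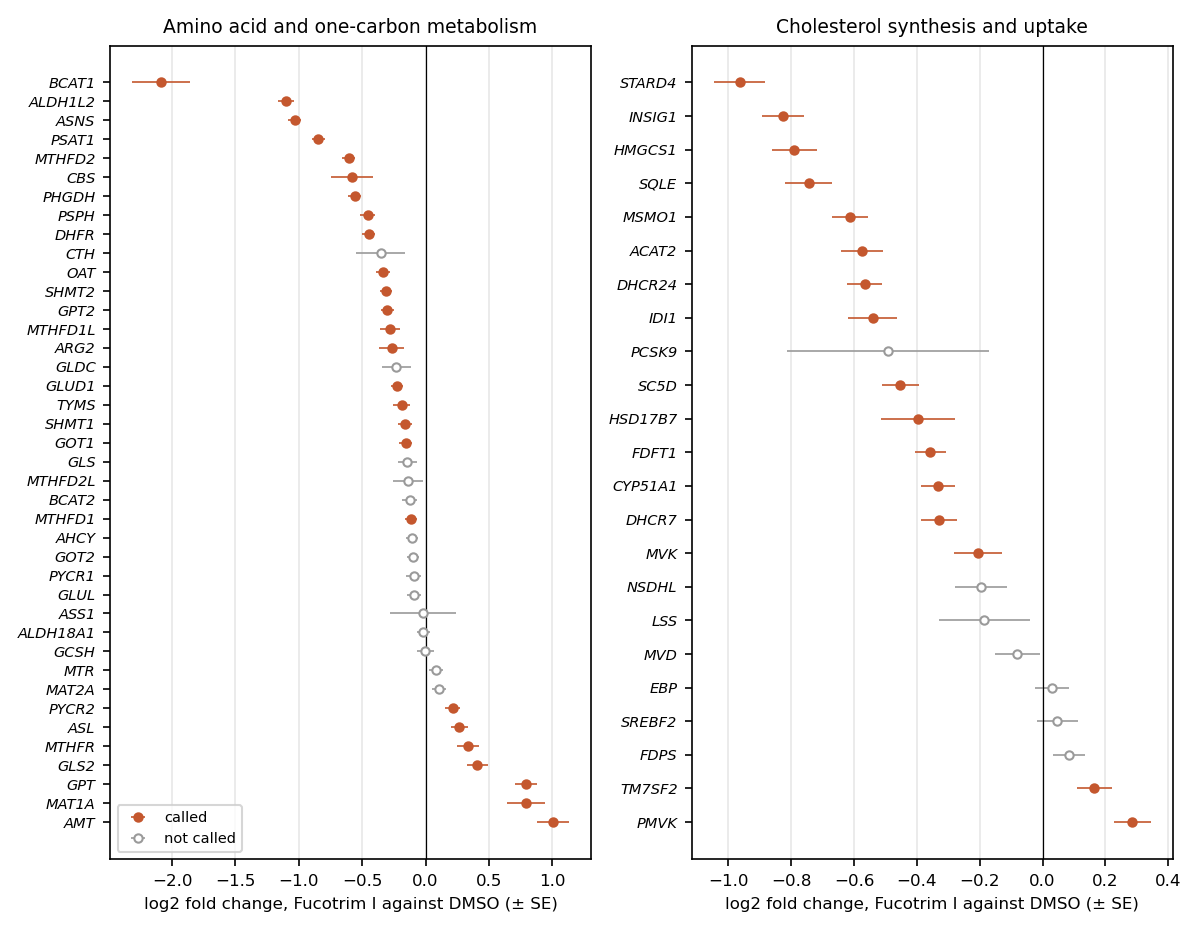
Log2 fold change with its standard error (horizontal) of tested members of the amino acid and one-carbon list (left, 40 genes) and the cholesterol list (right, 23 of 25 genes); filled points were called and open points were not. Of the members shown, 19 on the left and 14 on the right were called lower.

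In the citric acid cycle the falls were small, the largest in SUCLA2 (-0.36), a subunit of succinyl-CoA ligase, and DLAT (-0.36), of the pyruvate dehydrogenase complex. OGDHL, a relative of a 2-oxoglutarate dehydrogenase subunit, rose by 0.68 and IDH3G, a subunit of isocitrate dehydrogenase, by 0.47. Glycolysis and the pentose phosphate pathway had 5 of 34 genes higher and 6 lower, and 0 of them were beyond 0.58. PCK2, the mitochondrial phosphoenolpyruvate carboxykinase, fell by 0.41 and the aldolase gene ALDOC rose by 0.41. Among aldehyde, retinol and steroid oxidoreductases 13 of 46 were higher and 11 lower. AKR1C3, which makes testosterone from androstenedione, was at 28.5, 27.9 and 28.9 CPM in DMSO and 56.1, 45.8 and 43.6 CPM with Fucotrim I, a change of 0.77 (SE 0.08, adjusted p = 3.98e-07). HSD11B2, which inactivates cortisol, rose by 0.75 (SE 0.08). Of 16 cytochromes P450, 4 were higher and 3 lower. CYP1A1, a classic target of the aryl hydrocarbon receptor, was at 50.3, 44.98 and 49.5 CPM and 138, 99.4 and 90.3 CPM, a change of 1.18 (SE 0.18, adjusted p = 0.00457), while the receptor gene AHR, with 29.5% of its exonic bases shared, fell by 0.52. CYP4F8, a hydroxylase of prostaglandins, rose by 1.31 (SE 0.12).

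Of the enzymes around the target of Fucotrim I, few were called. GMDS (NCBI gene 2762, hg38 chromosome 6, bases 1623806 to 2245605) was at 16.6, 16.7 and 15.6 CPM in DMSO and 15.04, 13.6 and 15.04 CPM with Fucotrim I, and its change of -0.17 (SE 0.09) was not called (adjusted p = 0.155 in edgeR's test). The GDP-mannose genes GMPPA, GMPPB and PMM2 had changes of 0.06, -0.01 and 0.04, none of them called, and 42.6% of the exonic bases of GMPPB are shared with an overlapping gene. FUT8, which adds the core fucose of N-glycans, was called lower (-0.28, SE 0.09), a call lost in 4 of 14 alternatives. Within the list of mannose, GDP-mannose and GDP-fucose metabolism 8 of 34 genes were higher and 3 lower, with a median of 0.01 that ranged from -0.0268 (without Fucotrim I replicate 1) to 0.0345 (without Fucotrim I replicate 2). The largest rise was that of DPM3, a subunit of dolichol-phosphate mannose synthase, at 27.03, 27.9 and 33.02 CPM and 56.5, 45.03 and 56.7 CPM, a change of 0.85 (SE 0.09, adjusted p = 1.12e-06). FCSK, the kinase of fucose salvage, and PMM1, a phosphomannomutase, rose by 0.41 and 0.38. NUS1, which helps to make the dolichol that carries these sugars, fell by 0.58.

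Among transcription factors of the AP-1, ATF, CREB and C/EBP families, 13 of 44 were lower and 9 higher. ATF4 (NCBI gene 468, hg38 chromosome 22, bases 39519695 to 39522683), the factor of the integrated stress response, was at 484, 473 and 484 CPM in DMSO and 265, 272 and 283 CPM with Fucotrim I, a change of -0.81 (SE 0.05, adjusted p = 3.56e-11). Its dimer partner CEBPG was at 136, 139.6 and 135 CPM and 78.98, 82.4 and 77.3 CPM, a change of -0.78 (SE 0.05, adjusted p = 6.22e-10). DDIT3, the stress factor also known as CHOP, fell by 1.09 from 72.6, 78.8 and 75.4 to 27.99, 39.2 and 39.2 CPM, with 31.6% of its exonic bases overlapped by a gene on the other strand. CREB3L4, a membrane-bound factor found in prostate, rose by 0.83 (SE 0.05, adjusted p = 2.23e-10) from 97.2, 97.1 and 105 CPM to 178, 175 and 178 CPM. The circadian output factor DBP rose by 0.89 (SE 0.11).

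Of 21 ETS factors, 7 were higher and 5 lower. ETV1 (hg38 chromosome 7, bases 13891229 to 13991425), of the PEA3 group that responds to receptor signalling, was at 33.8, 34.9 and 33.4 CPM in DMSO and 13.5, 16.8 and 14.6 CPM with Fucotrim I, a change of -1.18 (SE 0.09, adjusted p = 1.82e-09). Its close relatives ETV4 and ETV5 fell by 0.63 and 0.61, and these 3 had the largest falls. The rises included epithelial members, with EHF at 119, 115 and 112 CPM and 188, 201 and 181 CPM, a change of 0.72 (SE 0.05, adjusted p = 2.22e-09), and ELF5 at 0.73 (SE 0.10). FEV rose by 0.75 (SE 0.13). SPDEF, an epithelial factor that was named after its values were seen, rose by 0.66 (SE 0.06).

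The HOX list had 5 of 28 members higher and 4 lower. HOXB13 (NCBI gene 10481, hg38 chromosome 17, bases 48724763 to 48728750), a prostate lineage factor, was at 239.6, 219 and 235 CPM in DMSO and 418, 358 and 372 CPM with Fucotrim I, a change of 0.73 (SE 0.06, adjusted p = 4.39e-09). HOXA13, which shares its paralogue group, was at 13.01, 12.9 and 13.7 CPM and 6.08, 6.06 and 6.42 CPM, a change of -1.09 (SE 0.11, adjusted p = 2.02e-07). HOXB13 and HOXA13 thus moved in opposite directions, while HOXC13 of the same group had a change of -0.14 and was not called. Of 20 KLF and SP factors 8 were higher and 5 lower, with rises of KLF9 and KLF4 and falls of SP3, SP4 and KLF12. KLF9, a glucocorticoid and thyroid hormone target, was at 22.04, 23.2 and 19.5 CPM and 49.7, 47.4 and 45.9 CPM, a change of 1.14 (SE 0.08, adjusted p = 4.79e-10), and KLF4, a factor of epithelial differentiation, rose by 0.71 (SE 0.07). SP3 and SP4 fell by 0.35 and 0.54, and KLF12 had a change of -0.39 (SE 0.12).

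Nuclear receptors had 9 of 35 members higher and 6 lower. NR4A1, an orphan receptor and immediate early gene, was at 56.8, 55.5 and 60.9 CPM in DMSO and 122, 103 and 115 CPM with Fucotrim I, a change of 0.97 (SE 0.07, adjusted p = 5.34e-10). HNF4G and NR2F1 fell by 0.71 and 0.60. Of the immediate early genes 8 of 33 were higher and 7 lower. The inhibitors of differentiation ID1 and ID2, targets of BMP signalling, fell from means of 336 ± 12.5 and 184 ± 8.42 CPM (SD, n = 3) to 236 ± 5.36 and 122 ± 5.71 CPM, changes of -0.51 and -0.59. SMAD9, a transducer of BMP signals, was at 55.4, 56.6 and 54.6 CPM and 32.5, 30.5 and 27.5 CPM, a change of -0.88 (SE 0.07, adjusted p = 6.16e-09), and the inhibitory SMAD genes SMAD6 and SMAD7 fell by 0.43 and 0.51. MLXIPL, which responds to glucose, rose by 0.96 (SE 0.12). TFEB, a regulator of lysosome genes, rose by 0.86 (SE 0.09). Of 50 basic helix-loop-helix factors, ID1, ID2, MLXIPL and TFEB among them, 13 were higher and 14 lower, and of 26 STAT, IRF, NF-kB and SMAD factors 5 were higher and 7 lower.

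Forkhead factors had 7 of 26 members higher and 4 lower, and the largest rises were in a set of near-identical genes. FOXD4 was at 45.6, 42.2 and 44.6 CPM in DMSO and 116, 109.7 and 117 CPM with Fucotrim I, a change of 1.37 (SE 0.06, adjusted p = 7.15e-13), and FOXD4L1 rose by 1.32 (SE 0.13). Of the 100-base windows of their transcripts, 24.5% and 22.6% also occur in other genes, so reads may have been divided between the copies. FOXM1, a driver of mitotic genes, fell by 0.42. SOX factors had 3 of 12 members lower, SOX9, SOX12 and SOX5, and 0 higher, with a call of SOX5 that some alternatives lost. Of 467 zinc finger genes with a ZNF symbol 58 were higher (12.4%) and 99 lower (21.2%). Over all genes tested the shares were 21.6% and 22.1%.

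The same genes were also measured with the other inhibitors, against the same DMSO libraries, so the comparisons share their controls. The doses differed (60 μM Fucotrim II with 2 libraries, 100 μM SGN-2FF and 2 μM of the sialylation inhibitor P-SiaFNEtoc), so the values are set side by side without a test. S100P had a log2 fold change of 1.79 with Fucotrim I, 2.19 with Fucotrim II, 0.73 with SGN-2FF and 0.53 with P-SiaFNEtoc. For TMPRSS2 the values were 1.38, 1.41, 1.14 and 0.67 in the same order. Both genes were higher than DMSO in each of the 4 estimates. The cholesterol list had a median of -0.40 with Fucotrim I and 0.14, -0.14 and 0.01 with the others in that order, and INSIG1 had -0.83, -0.05, -0.31 and -0.06. ATF4 had -0.81, -0.21, -0.13 and -0.12, and ALDH1L2 -1.10, -0.16, -0.42 and -0.08. DHRS2 had -2.39, -3.07, -1.05 and -0.73. CYP1A1 had 1.18, 0.51, -0.89 and 0.03.

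**Figure D5:**
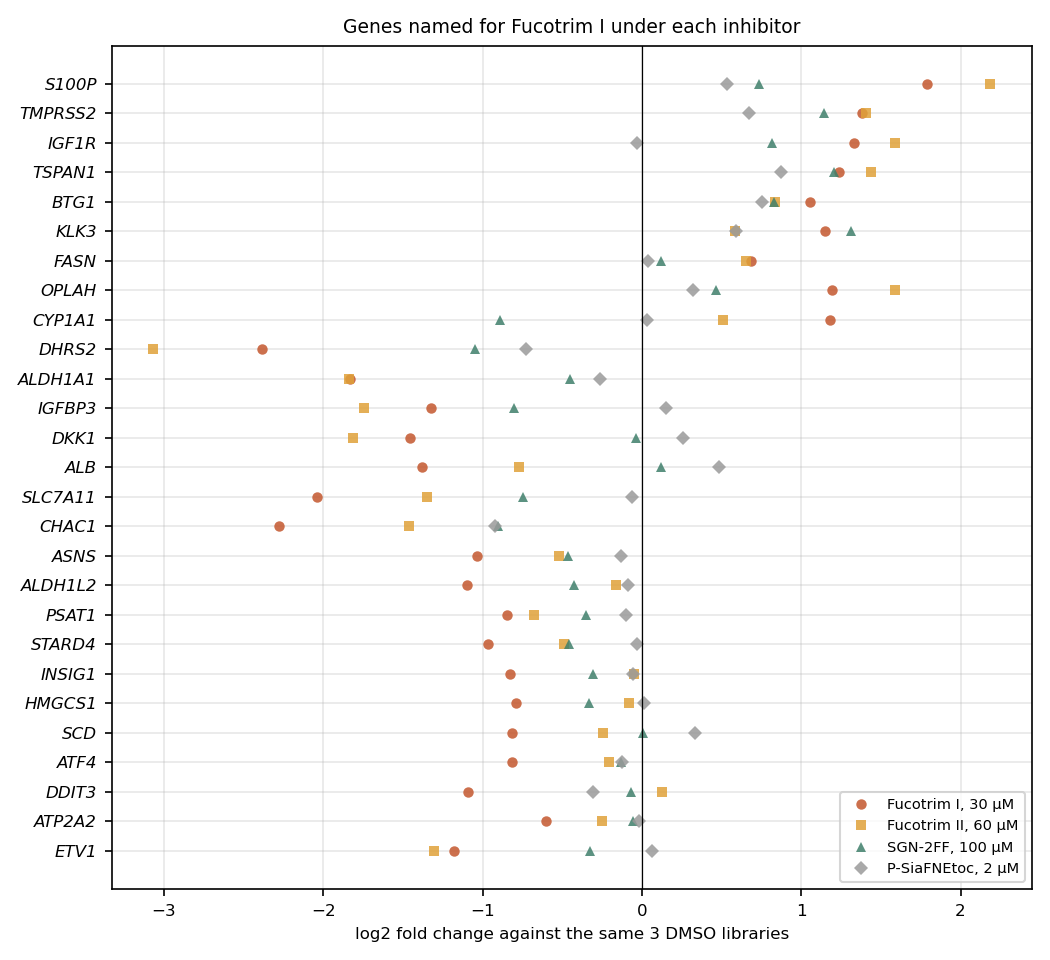
Log2 fold change (horizontal) of 27 genes named for Fucotrim I under each of 4 inhibitors at the doses in the key, each against the same 3 DMSO libraries. Circles (Fucotrim I) run from -2.39 for DHRS2 to 1.79 for S100P, and no test of the difference between inhibitors was made.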

How the data were processed

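Total mRNA of CWR22RV1 cells was sequenced by the authors as stranded libraries with single reads of 100 bases, and per the labels and methods the reads were trimmed with Cutadapt, mapped to hg38 with HISAT2 and counted with featureCounts. The authors deposited the counts as whole numbers per NCBI gene number, without normalization. The annotation release, the strand setting and the handling of reads with several positions are not given in the sources used here. The deposited counts were fitted with edgeR 4.0.16 in R 4.3.3 (filterByExpr with minimum count 10 and minimum total 15, TMM scaling, robust quasi-likelihood test, Benjamini-Hochberg adjustment), with the 6 libraries of both groups alone. Each SE is the absolute log2 fold change divided by the square root of F. With 3 libraries a group, errors are SDs over libraries.

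The rule for named genes took, at each of 3 levels (at least 300, 30 to 300 and 3 to 30 CPM as the mean of the 6 libraries), the 5 largest rises and 5 largest falls among called genes that average 50 counts or more a library and whose groups do not overlap, outside the S phase, G2 and M phase and unfolded protein lists. From each of 31 lists it took the 3 largest rises and falls under the same conditions on calls, overlap and counts. Members of the S phase, G2 and M phase and unfolded protein lists were allowed in this choice. The rule also added GMDS, GMPPA, GMPPB, PMM2 and FUT8. Some named genes are not reported here, though counts over lists include them. The members and lists were chosen with earlier results of these data known. BTG1, NEAT1, FKBP5, MALAT1 and KRT8 as the highest nuclear rises, and BCAT1, PHGDH, PSPH, MTHFD2, SQLE, SREBF2, SPDEF, SLC7A5, SLC3A2, JAKMIP2, BRINP1 and HOXC13, were added after their values were seen. Of the lists, 16 were hand-written and 15 taken by symbol. Alternatives were DESeq2 1.42.0, limma-voom (limma 3.58.1), DESeq2's size factors, no filter, at least 10 counts in every library, an adjusted p-value under 0.01, leaving out each library, the replicate number as a block, a fit of all 14 libraries, and leaving out mitochondrially encoded genes. The test was checked on simulated counts. Positions and shared exons come from GENCODE v44 on hg38, and promoters from RefSeq on GRCh38.p14. The columns of the authors' own comparisons were not used.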

Additional observations from a re-analysis of the deposited data

How the results depend on the processing

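The number of genes called stayed within 1.5 times of 6209 under each alternative run. DESeq2 called 5187 genes, limma-voom 6169, DESeq2's size factors 6194, no filter 6408, at least 10 counts in every library 6116, the fit of all 14 libraries 6110, and leaving out mitochondrially encoded genes 6193. Leaving out 1 library gave 4877 (without Fucotrim I replicate 3) to 6297 calls (without Fucotrim I replicate 2), and beyond 0.58 from 1104 to 1380. An adjusted p-value under 0.01 left 4296. The fit with the replicate block called 7288. The replicate numbers were not taken as pairs, since the methods of the study name no block. The deviations of same-numbered libraries correlated by 0.172, 0.178 and 0.0248. Replicates 1 and 2 each correlated best with their own number, and Fucotrim I replicate 3 with DMSO replicate 2 (0.0629). Whether equal numbers mark pairs was not tested.

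Without a filter the list medians were -0.24 for growth factors, 0.0169 for receptor tyrosine kinases, -0.0707 for the glutathione and thioredoxin systems, -0.0608 for the AP-1, ATF, CREB and C/EBP factors, 0.29 for cytochromes P450 and -0.0336 for ETS factors. With at least 10 counts in every library they were -0.0493 for the AP-1, ATF, CREB and C/EBP factors and 0.11 for ABC transporters. In the fit of all 14 libraries they were 0.0611 for proteases and inhibitors, -0.0739 for receptor tyrosine kinases and 0.22 for cytochromes P450. Leaving out 1 library moved the medians of growth factors between -0.17 and -0.00175, immediate early genes between -0.10 and -0.0166, the glutathione and thioredoxin systems between -0.0419 and 0.0063, SOX factors between -0.26 and -0.0773, serpins between -0.0249 and 0.0502, receptor tyrosine kinases between -0.0757 and -0.0249, AP-1, ATF, CREB and C/EBP factors between -0.0605 and 0.0336, amino acid and one-carbon genes between -0.20 and -0.15, ETS factors between -0.0129 and 0.11, cholesterol genes between -0.45 and -0.33 and the citric acid cycle between -0.13 and -0.0788. In all, 32 of 434 list medians moved by more than the spread between libraries, and 52 of 868 counts within lists by over 1.5 times.

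Of 2640 values of named genes, 59 calls were lost, 0 were gained and 4 changed sign, all 4 of GMPPB, which was not called and ranged from -0.0753 to 0.0414 when a library was left out. The cause was not tested. Under the replicate block, ND5 and ND6 lost their calls. At 12553094 counts in the smallest library, a gene under 3 CPM has few reads, and a fold change there has a wide error.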
